A study of Mus musculus with 6 samples.

Results

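The genes described here are interleukin-18 (IL-18), its binding protein and receptor, and the inflammasome genes that process it. The group holds the 10 rows of the count table named Il18, Il18bp, Il18r1, Nlrp6, Naip1, Nlrc4, Pycard, Casp1, Casp4 and Gsdmd, of 23390 rows in all, and 9 of them had enough counts to be tested. RNA was sequenced from intestinal epithelial cells of the small intestine of C57BL/6 mice, sorted as viable, CD45-negative and EpCAM-positive. There were 3 Maf.flox libraries, from mice with floxed Maf and no Cre in their label, and 3 Vil.Cre Maf.flox libraries, where the villin promoter, active in intestinal epithelium, drives the Cre that deletes Maf, the gene of the transcription factor c-Maf. Both groups thus carried floxed Maf, and Cre is named for the deleted group only, so effects of Cre itself and of Maf loss cannot be told apart. Age and sex are not in the labels, nor is it stated that replicates were separate animals. Each group held libraries of both sexes by the counts given below, and so more than 1 animal. The p-values speak only of the spread among these libraries, of which the technical part is not known. Below, the Maf.flox libraries are called controls and the others Maf-deleted.

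IL-18 is a cytokine that epithelial cells hold as an inactive precursor. Inflammasomes are complexes in which a sensor of the NLR family, often through the adaptor ASC, activates caspase-1, which cleaves the IL-18 precursor and also gasdermin D, whose released fragment forms pores in the cell membrane. Secreted IL-18 signals through its receptor on lymphocytes and epithelial cells, and IL-18 binding protein captures it outside the cell; interferon-gamma is a known inducer of that binding protein. In the gut epithelium this system is known for defence against enteric bacteria and for effects on goblet cells.

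Total counts ran from 17464355 to 24802525 per library. Maf, the deleted gene, was read 9398, 5615 and 3893 times in control replicates 1, 2 and 3, against 16, 1 and 1 times once deleted. Across 13740 genes tested with edgeR's quasi-likelihood test, 0.546% passed a Benjamini-Hochberg adjusted p of 0.05, of which 26 genes were higher and 49 lower in Vil.Cre Maf.flox, and 2248 had an unadjusted p under 0.05. Maf.flox replicate 3 stood apart from the other controls, with a chi-square per gene of 133 and 61.6 against them and 37.8 between these. By their Xist and Y-linked counts, control replicate 1 and Maf-deleted replicates 1 and 2 were male and the other 3 libraries female. The summed level of 7 epithelial markers was 15720 to 20710 TMM-scaled CPM, which are counts relative to library size, in the 6 libraries. The 5 leukocyte markers summed to 14.5 to 23.4 CPM in the controls and 14.6 to 18.7 CPM with Maf deleted. Among them Ptprc had 0.101 to 2.29 CPM, so most of that sum came from other genes of the list.

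Of the 9 members tested, Il18bp rose in Vil.Cre Maf.flox, and no member fell. The share of all genes that edgeR called higher was 0.189%, and the share called lower was 0.357%. DESeq2 also called Il18bp alone, where it called 1.82% of 14587 genes higher and 3.26% lower, and limma-voom called no member and 0.218% of all genes, 0.0873% higher and 0.131% lower. An unadjusted p under 0.05 by edgeR was found for 2 of the 9 members, Il18bp and Il18, and for 16.4% of all genes tested. The median log2 fold change of the 9 members was 0.02, beside -0.01 over all genes tested.

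Before the values, 3 sequences are shown, each upstream of a RefSeq transcription start. They belong to the member that rose, the cytokine that it binds, and the sensor with the highest level. Each is the 250 bases before the RefSeq transcription start (RefSeq, GRCm38.p6), on the gene's own strand. RefSeq windows matched 9 of the 10 members. Capitals mark the match to TTGCNNAA, a C/EBP-type site, in Il18bp, and the match to TGANTCA, an AP-1 site that other basic leucine zipper factors also bind, in Nlrp6. No letters are marked in Il18.
Il18bp, chr7:102018233-102018482, minus strand: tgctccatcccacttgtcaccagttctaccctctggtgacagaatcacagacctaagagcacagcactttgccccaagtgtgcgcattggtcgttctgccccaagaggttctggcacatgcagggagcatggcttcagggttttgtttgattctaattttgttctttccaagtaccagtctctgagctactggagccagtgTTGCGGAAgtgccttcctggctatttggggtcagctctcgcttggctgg
Il18, chr9:50554450-50554699, plus strand: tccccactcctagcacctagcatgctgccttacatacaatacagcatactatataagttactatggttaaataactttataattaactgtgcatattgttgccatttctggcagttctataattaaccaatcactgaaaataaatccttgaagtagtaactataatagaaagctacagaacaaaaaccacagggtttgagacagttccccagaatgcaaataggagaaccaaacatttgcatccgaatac
Nlrp6, chr7:140920652-140920901, plus strand: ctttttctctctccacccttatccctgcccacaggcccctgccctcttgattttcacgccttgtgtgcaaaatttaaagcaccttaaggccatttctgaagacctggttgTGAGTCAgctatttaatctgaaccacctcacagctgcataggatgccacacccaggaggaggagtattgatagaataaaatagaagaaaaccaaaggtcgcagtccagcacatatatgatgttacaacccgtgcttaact

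Motifs were searched on both strands of these 250-base stretches. TTGCNNAA was found in 9.56% of 32851 windows of all genes and in 3 of 12 windows of members, those of Il18bp, Pycard and Nlrc4. The Il18bp match began 49 bases before the RefSeq start. TGANTCA was found in 6.75% of all windows and among members in Nlrp6 alone, 140 bases before the start. The core TGCTGA of Maf sites was in 16.1% of all windows and among members in Pycard only, where 1 of its 2 matches overlaps the TTGCNNAA match. The full Maf element, TGCTGA and TCAGCA around any 1 base, which contains that core and TGANTCA, was in 2 of all windows and in none of the members' windows. The interferon-stimulated response element, GAAA and GAAA around any 2 bases, was in 2.98% of all windows and in no member's window, and the STAT site TTCNNNGAA was in 7.02% of all windows and, among members, in 1 window of Il18r1, with 2 matches. These matches are letters in a window, and binding there was not measured. On the minus strand the annotated Il18bp gene (GENCODE M21) begins at position 102018690. The RefSeq start used here, and the whole window printed before it, thus lie within the annotated gene.

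Il18bp (ENSMUSG00000070427, GRCm38 chr7:102014885-102018690, minus strand) encodes the secreted protein that binds and neutralises IL-18. Its level was 2.78, 3.33 and 2.04 CPM in control replicates 1, 2 and 3, and 14.9, 8.10 and 9.97 CPM in Maf-deleted replicates 1, 2 and 3. The lowest deleted library thus lay above the highest control, and replicate 1 was the highest of the deleted group. The means were 2.72 ± 0.648 CPM and 11.0 ± 3.49 CPM (SD, n = 3 each). The log2 fold change was 2.02 (SE 0.280, 95% interval 1.38 to 2.65), or 4.05-fold, and the Benjamini-Hochberg adjusted p from edgeR was 0.0268. These levels rest on 43 to 66 counts per control library and 138 to 293 per deleted library.

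Sex, read from the counts, was not balanced between the genotypes, and each sex had only 1 library in 1 of them. Among males Il18bp had 2.78 CPM in the only control against 14.9 and 8.10 CPM with Maf deleted. Among females it had 3.33 and 2.04 CPM in the controls against 9.97 CPM in the only deleted library. These values carry no test within a sex. With sex as a term the log2 fold change was 1.97 and the call was lost (adjusted p = 0.0529, edgeR). The call was also lost with limma-voom (adjusted p = 0.0520) and without control replicate 1 or 2 or Maf-deleted replicate 1 or 3, with adjusted p of 0.0583, 0.0650, 0.109 and 0.0707 by edgeR. Over all 16 alternatives the log2 fold change ran from 1.75 to 2.21 and the adjusted p from 2.87e-09, with DESeq2, to 0.109.

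Il18bp overlaps Numa1, a spindle protein gene on the other strand, over 80 of its 3026 exon bases, and strand use in counting was not given. Numa1 had 2724 to 4628 counts per library and a log2 fold change of -0.19 (adjusted p = 0.546, edgeR). The part of Numa1 reads in the Il18bp counts was not tested. In sorted bulk cells, a change in the share of cells of a type and a change in RNA per cell cannot be told apart.

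Il18bp is also a product of macrophages, and markers of cells that the sort should exclude were read beside it. The summed level of the 8 myeloid markers measured, of 10 listed, was 19.6 to 20.1 CPM in the controls and 27.2 to 37.8 CPM with Maf deleted (exact permutation test, two-sided, p = 0.1, the smallest that 3 against 3 allow). This sum came mostly from Cd14, at 9.06 to 11.6 and 13.9 to 20.8 CPM, and Itgam, at 5.72 to 7.49 and 10.8 to 15.3 CPM. The defining macrophage markers Csf1r, Lyz2 and Mpeg1 lay at or below 0.521 CPM in each library, and Cx3cr1 and Itgax were at 0 in 4 of 6 libraries and at most 0.0856 CPM. Cd68, the eighth of these markers, had 1.41 to 2.04 CPM in the controls and 0.813 to 2.76 CPM with Maf deleted. The summed level of the 9 T, NK and innate lymphoid markers measured was 0.806 to 1.51 and 1.57 to 2.14 CPM, and that of the 6 B and plasma cell markers was 2.86 to 4.84 and 3.77 to 17.5 CPM. The part of these cells in the Il18bp difference was not tested.

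Markers of epithelial cell types were also read beside Il18bp. Summed over 7 enterocyte markers the level was 6321 to 15270 CPM in the controls and 3641 to 6865 CPM with Maf deleted (exact permutation test, two-sided, p = 0.2). All 7 had a log2 fold change below 0, and Lct, the lactase gene, was called at -4.86 (adjusted p = 0.00298, edgeR), while DESeq2 called 4 of the 7 lower. The 8 tuft cell markers summed to 17.4 to 70.5 CPM in the controls and 14.35 to 15.5 CPM with Maf deleted, with no overlap (exact permutation p = 0.1, the smallest possible). All 7 tuft markers tested lay below 0 with an unadjusted p under 0.05, edgeR called 0 of them and DESeq2 5. Over 7 Paneth markers the sums were 5020 to 32820 CPM in the controls and 6645 to 10030 CPM with Maf deleted (exact permutation p = 0.4). Over 6 enteroendocrine markers they were 288 to 773 and 256 to 479 CPM (exact permutation p = 0.6). Over 5 stem cell markers they were 1848 to 2615 and 1608 to 2224 CPM (exact permutation p = 0.3). Of these lists, 6 Paneth, 4 enteroendocrine and 5 stem cell markers lay below 0. The part of these cell types in the Il18bp difference was not tested.

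Il18 (ENSMUSG00000039217, chr9:50554827-50581840, plus strand) encodes the cytokine itself. It had 12.95, 17.6 and 7.87 CPM in control replicates 1, 2 and 3 and 32.3, 16.9 and 18.3 CPM in Maf-deleted replicates 1, 2 and 3. The groups overlapped, since control replicate 2 exceeded Maf-deleted replicate 2, and Maf-deleted replicate 1 was the highest. The log2 fold change of 0.81 (SE 0.346, 95% interval 0.004 to 1.625) did not pass over all genes (adjusted p = 0.304, edgeR). It was 0.47 without Maf-deleted replicate 1, and Il18 passed in none of the 16 alternatives. The spans of Bco2 and Tex12 overlap Il18 on the other strand, but share no exon base with it.

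Il18r1 (ENSMUSG00000026070, chr1:40465552-40500854, plus strand) encodes the receptor chain that binds IL-18. It had 7, 8 and 7 counts in the controls and 4, 4 and 2 in the Maf-deleted libraries. These counts were too low for the main test. With no filter on low counts its log2 fold change was -0.98 (adjusted p = 0.644, edgeR), so no difference was detectable at this depth. Il18rap, the signalling chain of the same receptor, had 0 to 0.416 CPM.

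**Figure D1:**
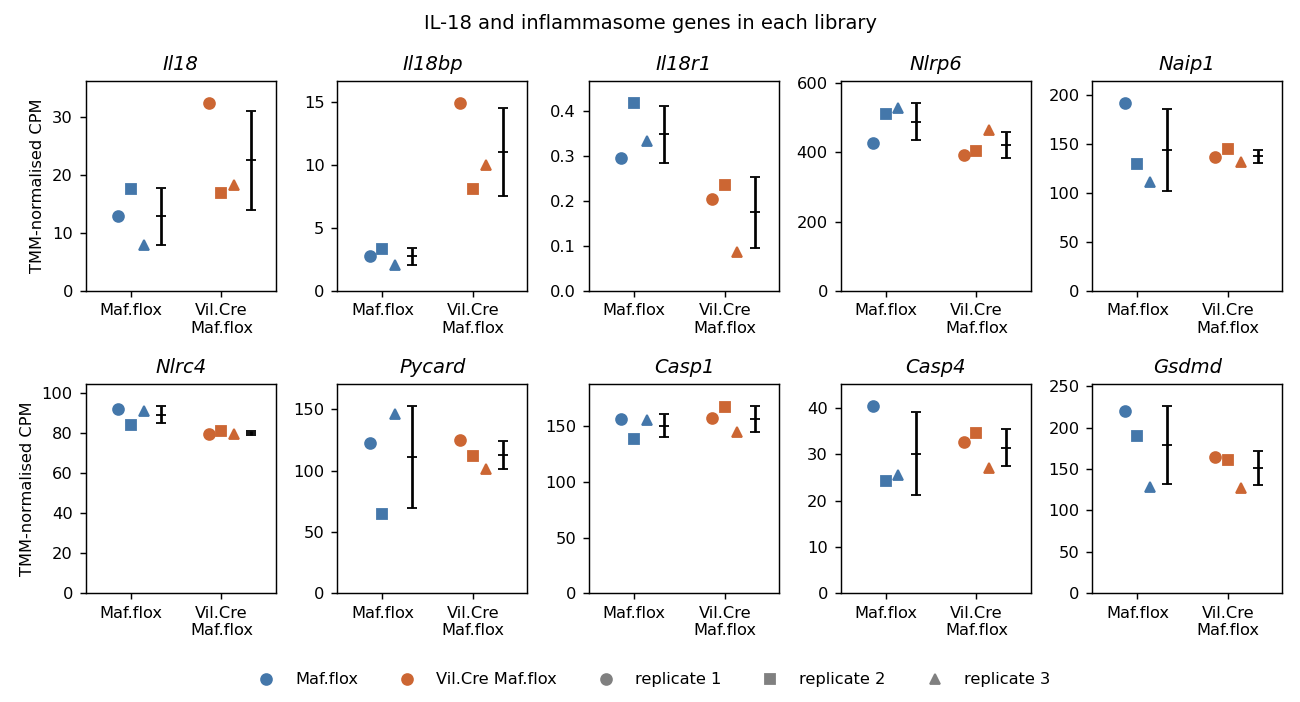
Level of each of the 10 genes in each library (y axis, TMM-normalised CPM from 0; x axis, genotype; marker shape, replicate number; black bars, mean ± SD of 3 libraries). The 3 deleted libraries of Il18bp lie at 8.10 to 14.9 CPM, above the controls at 2.04 to 3.33 CPM, while the groups of Il18 overlap.

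The ratio of binding protein to cytokine was read per gene length, from FPKM (counts scaled by gene length and library size). Il18bp FPKM was 7.30, 6.45 and 8.83% of Il18 FPKM in the controls and 15.7, 16.4 and 18.5% in the Maf-deleted libraries. The ratio was higher in each deleted library than in each control, by 2.25-fold between the group means on the log2 scale (difference 1.17, pooled SD 0.18), and is given as a description without a test. Il18 mRNA still exceeded Il18bp mRNA per length in every library, by 5.39 to 15.5 times. Maf-deleted replicate 1 was the highest library and control replicate 3 the lowest for both genes.

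By the root mean square difference of centred log2 CPM over the 6 libraries, the gene nearest to Il18bp among 10154 genes with at least 5 CPM was Duoxa2 (0.27), followed by Duox2 (0.29), Reg3b (0.34), Capg (0.36) and Dmbt1 (0.36). Duox2 is an epithelial NADPH oxidase and Duoxa2 its maturation factor, Reg3b is an antimicrobial lectin, Capg caps actin filaments and Dmbt1 is a secreted scavenger receptor. Their log2 fold changes were 2.11, 1.61, 1.70, 1.68 and 1.59, of which those of Duoxa2, Duox2 and Capg passed (adjusted p = 0.0315, 0.0143 and 0.0236, edgeR). The 5 genes were chosen for closeness to Il18bp in these same libraries, so fold changes near its own follow from the choice. The calls of Duoxa2, Duox2 and Capg were lost without control replicate 2 (adjusted p = 0.121, 0.0526 and 0.0904, edgeR) and without Maf-deleted replicate 3 (0.0695, 0.0563 and 0.0563, edgeR). Those of Duoxa2 and Capg were also lost without control replicate 1 (0.0893 and 0.0544, edgeR), and that of Duoxa2 without Maf-deleted replicate 2 (0.0527, edgeR). A sex term ended the calls of Duoxa2 and Capg (0.0955 and 0.0558, edgeR), and a replicate block and no filter on low counts each ended that of Duoxa2 (0.0764 and 0.0593, edgeR). Reg3b has a close copy, Reg3g, with which it can share reads. For Il18 the nearest genes included Mfsd2a (0.22), Smpdl3b (0.25), Sulf2 (0.31) and Slc40a1 (0.31), none of these called. Il18 itself was 0.59 from Il18bp, at place 63 of 13739 genes. Counted from Il18, however, Il18bp was only at place 3995, little nearer than Naip1 (0.613), Casp4 (0.614) and Casp1 (0.617). These distances describe 6 libraries and carry no test.

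**Figure D2:**
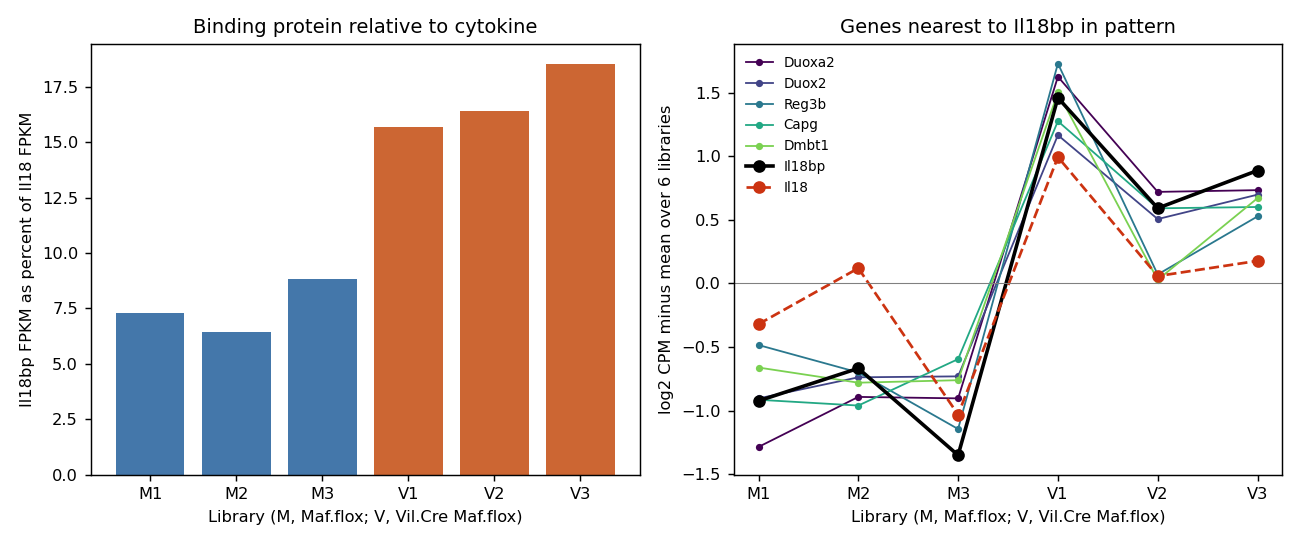
Left, Il18bp FPKM as percent of Il18 FPKM (y axis, from 0) in each library; right, log2 CPM minus its mean over the 6 libraries for Il18bp, Il18 and the 5 genes nearest to Il18bp, with lines that only join the values of a gene. The ratio is 6.45 to 8.83% in the controls (M) and 15.7 to 18.5% in the deleted libraries (V), and Il18bp and the 5 genes are highest in Vil.Cre Maf.flox replicate 1.

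Among the sensors, adaptor, caspases and gasdermin D, none of the 7 members passed in the main test or in any of the 16 alternatives. Nlrp6 (chr7:140920902-140929192, plus strand), a sensor known for its high level in gut epithelium, had 429, 510 and 528 CPM in the controls and 394, 406 and 465 CPM in the Maf-deleted libraries. The groups overlapped, and the log2 fold change was -0.21 (95% interval -0.50 to 0.08, adjusted p = 0.450, edgeR). Goblet cells are a known site of Nlrp6 function, and the summed level of 7 goblet markers was 14660 to 33550 CPM in the controls and 14700 to 27970 CPM in the deleted libraries. The part of goblet cells, and of the enterocytes described above, in the Nlrp6 values was not tested.

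Nlrc4 (chr17:74425438-74459142, minus strand) assembles the inflammasome once a NAIP protein has bound a bacterial ligand. It had 92.2, 84.4 and 91.4 CPM in the controls and 79.5, 81.15 and 79.5 CPM with Maf deleted. All 3 deleted libraries were thus below all controls, but by a small step, with a log2 fold change of -0.16 (95% interval -0.36 to 0.04, adjusted p = 0.424, edgeR). Among the 9 members tested, 1 had groups that did not overlap in the lower direction (Nlrc4) and 1 in the higher direction (Il18bp), where 10.5% and 10.1% of all genes tested did so.

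Naip1 (chr13:100407764-100452869, minus strand) encodes the NAIP protein that recognises the needle protein of bacterial type III secretion. It had 190.9, 129.4 and 110.8 CPM in the controls and 136.5, 144.0 and 130.8 CPM with Maf deleted, so that the controls spread on both sides of the deleted libraries. Its log2 fold change of -0.07 (95% interval -0.50 to 0.36, adjusted p = 0.893, edgeR) was 0.20 without control replicate 1. Naip1 has close copies in the genome, among which counting can split reads, so its level is uncertain.

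Pycard (chr7:127989708-127993867, minus strand) encodes ASC, the adaptor that links sensors to caspase-1. It had 122, 64.9 and 146 CPM in the controls and 125, 112 and 102 CPM with Maf deleted. Control replicate 2 was the lowest of all and control replicate 3 the highest. The log2 fold change was 0.02 (95% interval -0.61 to 0.66, adjusted p = 0.980, edgeR) and turned to -0.24 without control replicate 2 and to -0.05 without Maf-deleted replicate 1. An overlapping transcript on the other strand, Gm45205, shares 485 of 3800 exon bases and had 6 to 15 counts per library.

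Casp1 (chr9:5298517-5307265, plus strand) encodes caspase-1, which cleaves pro-IL-18. It had 156.6, 138.6 and 155.5 CPM in the controls and 157.5, 167.1 and 144.5 CPM with Maf deleted. The interval of its log2 fold change of 0.06, -0.18 to 0.29, was the narrowest of the members' intervals after that of Nlrc4 (adjusted p = 0.838, edgeR). Casp4 (chr9:5308828-5336783, plus strand) encodes mouse caspase-11, which senses lipopolysaccharide in the cytosol. It had 40.4, 24.2 and 25.6 CPM in the controls and 32.7, 34.6 and 27.0 CPM with Maf deleted, with overlapping groups and a log2 fold change of 0.06 (95% interval -0.40 to 0.53, adjusted p = 0.914, edgeR). That value turned below 0 with a sex term (-0.075) and without control replicate 2 (-0.063) or 3 (-0.043).

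Gsdmd (chr15:75862327-75867408, plus strand) encodes gasdermin D, the pore-forming target of both caspases. Its level was 220.0, 189.5 and 128.3 CPM in the controls and 164.1, 161.3 and 127.7 CPM with Maf deleted. Replicate 3 was the lowest library of each genotype. The log2 fold change was -0.25 (95% interval -0.70 to 0.20, adjusted p = 0.592, edgeR) and ran from -0.44 to -0.06 with 1 library left out in turn. None of these intervals shows that the genotypes had the same level; they bound the differences that these libraries leave possible.

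**Figure D3:**
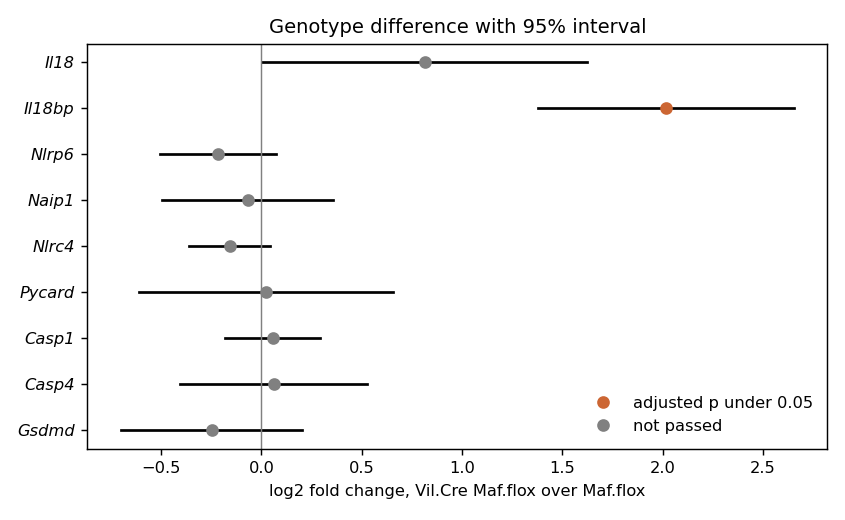
Log2 fold change of Vil.Cre Maf.flox over Maf.flox (x axis) for the 9 genes tested (y axis), with 95% intervals as lines and genes with an adjusted p under 0.05 in orange. Il18bp stands at 2.02, Il18 at 0.81, and the other 7 genes between -0.25 and 0.06 with intervals that include 0.

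Per gene length, Casp1 and Nlrp6 were the most abundant members in the controls, with 99.9 ± 7.43 and 95.7 ± 9.57 FPKM (SD, n = 3 each), and their ranges overlapped. Gsdmd followed with 75.1 ± 20.0 FPKM, overlapping the range of Nlrp6 downward. Pycard (29.1 ± 11.0 FPKM) and Naip1 (25.9 ± 7.81 FPKM) overlapped each other, and the range of Nlrc4 (18.8 ± 1.05 FPKM) lay below that of Naip1 and within that of Pycard. Il18 (12.4 ± 4.64 FPKM) and Casp4 (8.08 ± 2.49 FPKM) overlapped each other. Il18bp, at 0.893 ± 0.211 FPKM, and Il18r1, at 0.0718 ± 0.0123 FPKM, were the lowest and overlapped no neighbour.

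With Maf deleted the first 3 places were Casp1, Nlrp6 and Gsdmd again, at 105 ± 7.21, 83.1 ± 7.75 and 63.7 ± 8.36 FPKM (SD, n = 3 each), now with ranges that did not overlap. The order differed in a single place, where Il18 (21.9 ± 8.30 FPKM) stood above Nlrc4 (16.97 ± 0.143 FPKM), although the ranges of both overlapped. Il18bp stood at 3.64 ± 1.16 FPKM, still below Casp4 at 8.49 ± 1.04 FPKM. The mRNA of caspase-1 was thus more abundant per length than that of the cytokine it cleaves in each library, with Casp1 at 91.4 to 111.5 FPKM and Il18 at 7.58 to 31.4 FPKM.

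**Figure D4:**
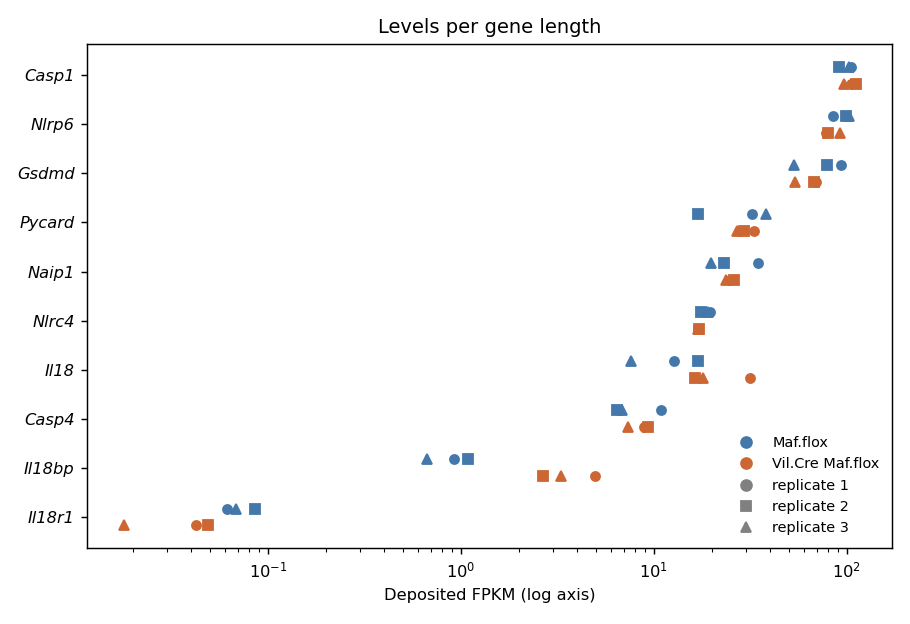
Deposited FPKM of the 10 genes (x axis, log scale; genes on the y axis in the order of their Maf.flox mean) in each library, with genotype as colour and replicate number as marker shape. Casp1, Nlrp6 and Gsdmd lie at 53.6 to 111.5 FPKM in both genotypes, and Il18bp and Il18r1 are lowest.

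Of the 49 genes tested on 4 lists of other genes in these pathways, edgeR called 0. An unadjusted p under 0.05 by edgeR was found for 15 of them, a larger share than the 16.4% of all genes tested. DESeq2 called 6 of the 49 (1 higher, 5 lower), also a larger share than its 5.09% of all genes, and limma-voom 0. Groups did not overlap for 9 in the lower direction and 4 in the higher, beside 10.5% and 10.1% of all genes. The lists were chosen with earlier results of these data known. Among 9 other inflammasome sensors and partners the median log2 fold change was -0.17, with 3 genes above 0 and 6 below. Naip5, a flagellin receptor, had 203 ± 54.8 CPM in the controls and 120 ± 27.2 CPM with Maf deleted (SD, n = 3 each), a log2 fold change of -0.76 that did not pass (adjusted p = 0.174, edgeR; 0.0209, DESeq2; 0.0297 without control replicate 3, edgeR). Txnip, which binds Nlrp3, stood at -0.37, Aim2, a sensor of cytosolic DNA, at 0.47, and Naip2, a receptor of the secretion rod protein, at -0.17. As with Naip1, reads of the other Naip copies can be shared.

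Among 15 other caspases, gasdermins and Ninj1, the median was 0.21, with 9 above 0 and 6 below. Gsdmc2 and Gsdmc4, members of the gasdermin C cluster of gut epithelium, had log2 fold changes of 0.48 each, from 48.7 ± 5.71 to 67.8 ± 6.22 CPM and from 125 ± 18.9 to 175 ± 33.7 CPM (SD, n = 3 each). Neither passed (adjusted p = 0.108 and 0.198, edgeR), and with a replicate block both did (0.0357 and 0.0355, edgeR). Gsdmc2 also passed with DESeq2 (adjusted p = 0.0222) and with no filter on low counts (0.0367, edgeR), where Gsdmc4 did not pass with DESeq2 (0.0786). As near copies they can share reads. Gsdme, a further pore-forming gasdermin, stood at -0.89 (adjusted p = 0.178, edgeR; 0.0111, DESeq2; 0.0254 without control replicate 3, edgeR).

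Among the other IL-1 family ligands and receptors, 4 of 16 listed genes were tested, and all 4 lay below 0, with a median of -0.48. They were Il1rn, the interleukin-1 receptor antagonist, at -1.02, the shared receptor chain Il1rap at -0.54, the alarmin Il33 at -0.43 and the inhibitory receptor Sigirr at -0.15, with adjusted p of 0.207, 0.251, 0.595 and 0.613 by edgeR. Among 21 genes of MyD88 and NF-kB signalling, through which IL-18 receptors act, the median was -0.01, with 10 above 0 and 11 below. The 4 with the smallest p were Nfkb2, Relb, Nfkbia and Irak2, at -0.51, -0.56, -0.73 and -0.40 (adjusted p = 0.0695, 0.150, 0.168 and 0.175, edgeR). Nfkb2 had 74.7 ± 3.50 CPM in the controls and 52.5 ± 4.43 CPM with Maf deleted (SD, n = 3 each), with no overlap. It passed with DESeq2 (adjusted p = 0.00483), with a replicate block and without control replicate 3. DESeq2 also called Relb and Nfkbia, so that 3 of the 21 were lower and 0 higher, beside 3.26% and 1.82% of all genes. Groups did not overlap for 6 of the 21 in the lower direction and 0 in the higher, beside 10.5% and 10.1% of all genes.

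Genes known to respond to interferon-gamma, of which Il18bp is also one, were read as a further list without Il18bp. The list was chosen with earlier results of these data known, so its values beside those of all genes are a description only. Of 31 tested, 25 lay above 0, as did 6655 of all 13740 genes, and the median was 0.69, beside -0.01 over all genes. Those called were Zbp1, which senses nucleic acids in the Z form, Irgm2 and Ifi47, which are interferon-induced GTPases, and Tap1, a peptide transporter of antigen presentation, all 4 higher. Irgm2 was 13.5 ± 2.65 CPM in the controls and 34.7 ± 8.59 CPM with Maf deleted, and Tap1 was 94.5 ± 19.1 and 182 ± 19.3 CPM (SD, n = 3 each), with log2 fold changes of 1.36 and 0.95 and an adjusted p of 0.0457 for each by edgeR. Ifi47 stood at 0.88 (adjusted p = 0.0389, edgeR) and Zbp1 at 2.28 (adjusted p = 0.0129, edgeR). These 4 calls stand beside 0.189% of all genes called higher. DESeq2 called 18 of the list higher and 1 lower, beside 1.82% and 3.26% of all genes, and limma-voom called Zbp1 alone. Zbp1 was also called with each library left out in turn. Irgm2, Tap1 and Ifi47 were not called without control replicate 1 (adjusted p = 0.0940, 0.0933 and 0.0761, edgeR) or 2 (0.155, 0.156 and 0.132), nor without Maf-deleted replicate 1 (0.235, 0.234 and 0.213) or 3 (0.0930, 0.0922 and 0.0917). Tap1 and Ifi47 were also not called without Maf-deleted replicate 2 (0.0748 and 0.0670, edgeR). With a sex term Irgm2, Tap1 and Ifi47 were not called either (0.0719, 0.0697 and 0.0529, edgeR), and Zbp1 was. The transcripts of the interferon-gamma receptor, Ifngr1 and Ifngr2, stood at -0.26 and -0.25 (adjusted p = 0.339 and 0.433, edgeR). Of the 31 tested, 6 lay below 0, the lowest being the chemokine gene Cxcl11 at -1.32 (adjusted p = 0.245, edgeR). Among genes of the list too low to be tested, Cxcl10 was lower and Gbp4 higher with Maf deleted, without overlap, and Cxcl9 overlapped.

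**Figure D5:**
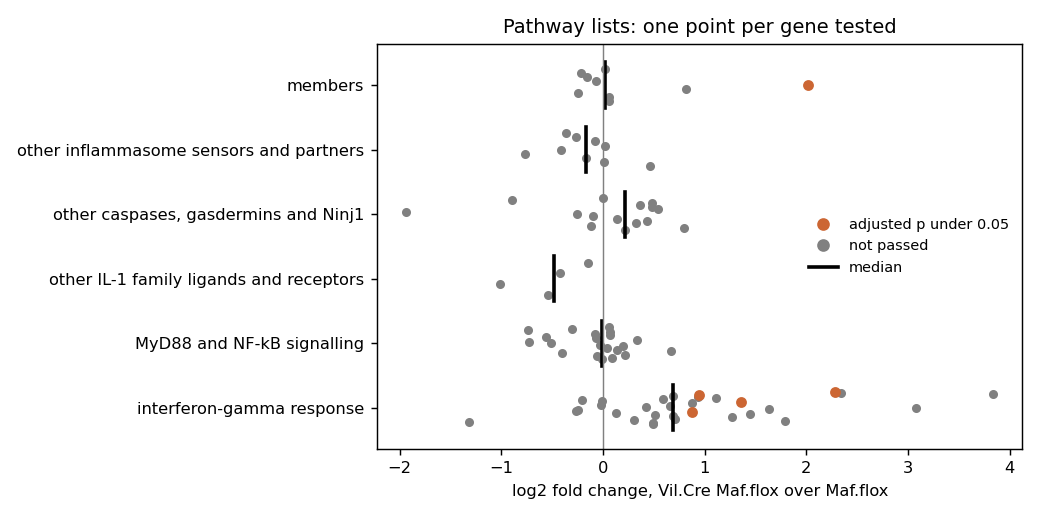
Log2 fold change of Vil.Cre Maf.flox over Maf.flox (x axis) for each gene tested in the members and 5 lists (y axis), with the median as a black line and genes with an adjusted p under 0.05 in orange. Il18bp and 4 interferon-gamma response genes are orange, and the medians lie between -0.48 (other IL-1 family genes) and 0.69 (interferon-gamma response).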

How the data were processed

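RNA-seq counts of 6 libraries were used. Per the labels' protocols, poly-A RNA was captured and reverse transcribed with random hexamers; second-strand synthesis used dUTP or dTTP, for a directional or a non-directional library, and which of these was made here, and whether counting used strand, is not given in the sources used here, so reads of overlapping genes may be mixed. The tools named in the submitters' processing notes are featureCounts 1.5.0-p3, HISAT2 2.0.5 and DESeq2, and the build named there is GRCm38 (mm10). Raw counts per gene were deposited without scaling. The FPKM deposited beside them are counts over gene length and a library size of 0.953 to 1.07 times the total; FPKM was only used to compare genes. In the deposited table, 24 gene symbols turned into dates were restored by identifier.

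Counts were filtered with filterByExpr (least count 10), scaled by TMM and tested for genotype alone with edgeR 4.0.16 in R 4.3.3 (quasi-likelihood F test, robust, two-sided, Benjamini-Hochberg over 13740 genes). Standard errors come from the F statistic, and log2 CPM used a prior count of 2. Fits were tested on simulated data, where the share of false calls was above the nominal level for edgeR, limma-voom and DESeq2, and highest for DESeq2, so adjusted p near the threshold are less firm than their size says. Alternatives were RLE and upper quartile scaling, no filter and a least count of 50, DESeq2 1.42.0, limma-voom (limma 3.58.1), FDR 0.01 and 0.1, a replicate block, a sex term and each library left out. The 10 members and all lists were chosen with earlier results of these data known. Named were all members, Maf, genes overlapping a member, called genes and the 4 smallest p of each list, the 2 highest or defining markers where a result touches them, and the 5 nearest patterns of Il18bp and Il18. Of the genes this rule names, 2 are not reported here. Ptprc, Lct, Il18rap and the interferon-gamma receptor genes, and the myeloid markers beyond the 2 highest, were named after their values were seen. So were Cxcl9, Cxcl10, Cxcl11 and Gbp4. The motifs, too, were chosen with earlier results known.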

Additional observations from a re-analysis of the deposited data

How the results depend on the processing

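The number of genes called was 75, against 365 with no filter on low counts, 742 with DESeq2, 30 with limma-voom, 2 at FDR 0.01, 372 at FDR 0.1, 440 with a replicate block and 38 with a sex term. With 1 library left out in turn the lowest number was 8, without Maf-deleted replicate 3, and the highest 701, without control replicate 3, and the cause was not tested. The number of members called was 1 and became 0 with limma-voom, at FDR 0.01 and with a sex term, and was 0 to 1 with 1 library left out. Pathway genes called rose from 0 to 2 with no filter, 6 with DESeq2, 1 at FDR 0.1 and 4 with a replicate block, and were 0 to 7 with 1 library left out, the 7 without control replicate 3.

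Members that were not called could change sign: Naip1 ran from -0.224 to 0.201 with 1 library left out, positive without control replicate 1 only, Pycard was -0.05 with a sex term and between -0.241 and 0.268 with 1 library left out, and Casp4 was -0.075 with a sex term and between -0.063 and 0.345 with 1 library left out. Il33 was 0.004 without control replicate 2 and -0.705 at its lowest. Il18bp kept its direction in all 16 alternatives, of which the settings FDR 0.01 and FDR 0.1 use the main fit and so could not differ in direction. With a replicate block its adjusted p by edgeR was 0.00559. For the block, deviations from the group means had correlations of 0.0917, -0.0256 and 0.269 between libraries of equal number. Between libraries of unequal number the correlations ran from -0.376 to 0.331. Deviations within so small a group are tied to each other, so these correlations cannot decide whether the numbers mark pairs. The labels name no pairs, and replicate numbers were not read as pairs in the main test. Depth limits Il18r1 most, since 1 CPM stands for 17.03 to 23.78 counts.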

Other observations

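The spread between libraries of a genotype was also read for the members. The coefficient of variation of CPM was smaller with Maf deleted than in the controls for 7 of the 9 members tested, with medians of 10.3 and 26.1%, whereas it was smaller for 47.9% of all 13740 genes, with medians of 13.0 and 12.6%. For Naip1 it was 4.82% in the deleted libraries and 29.2% in the controls, and for Pycard 10.3 and 37.5%. Also among the 7, Il18 was nearly equal at 37.9 and 38.0%, and Nlrp6 had 9.0 and 10.8%. The 2 members that went the other way were Il18bp, with 31.8 and 23.9%, and Casp1, with 7.28 and 6.71%. These are values over 3 libraries a group, without a test.

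Gasdermin D and caspase-1 differed in proportion between the controls: Gsdmd FPKM was 0.885, 0.861 and 0.520 times Casp1 FPKM in the controls and 0.656, 0.608 and 0.557 times in the Maf-deleted libraries. Control replicate 3 had the lowest of these ratios. The ratio of Nlrc4 to Naip1 FPKM was 0.565, 0.763 and 0.966 in the controls and 0.682, 0.660 and 0.712 in the deleted libraries.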
